A study of Sus scrofa with 26 samples.

Results

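Expression of 9 regulators of thermogenesis and mitochondrial biogenesis was compared in subcutaneous adipose tissue (SCAT) between thermoneutral pigs and other pigs under a heat challenge. The genes were UCP2, UCP3, CIDEA, PPARGC1A, ESRRA, TFAM, PPARA, DIO2 and ATP2A2. All array probes were taken whose gene symbol, accession or description names one of these genes, which gave 44 of the 60305 probes that are not controls: 22 for ATP2A2, 6 for TFAM, 4 for PPARGC1A, 3 each for UCP3 and PPARA, 2 each for UCP2 and DIO2 and 1 each for CIDEA and ESRRA. Of these, 43 passed the filter on dim probes, which kept 44703 probes in all. The fourth PPARGC1A probe, A_72_P404198, was well above background on 1 of 26 arrays and was not tested.

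The 26 arrays each held the RNA of 1 castrated male pig, from Large White (LW), Creole (a local Caribbean breed) or their F1 cross. Thermoneutral (TN) pigs were kept at 24 °C and comprised 3 Creole, 4 F1 and 4 LW animals. Heat-stressed (HS) pigs comprised 5 animals of each breed and were slaughtered after 4 or 5 days of heat per the methods of the study (5 days in the text of the series). The heat is labelled as 30 °C on the samples and given as 32 °C in that text. TN pigs were slaughtered before the challenge began, and the study reports that feed intake was lower in the heat. Temperature, feed intake, day of slaughter and age therefore cannot be told apart. Litter, pen and parents were not in the labels, so the p-values measure the spread between these pigs only.

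Heat can be made in a cell by letting protons leak back across the inner mitochondrial membrane, by pumping ions or cycling metabolites to no net effect, or simply by building more mitochondria that respire more. In rodents and humans UCP1 carries the proton leak of brown fat, but the pig has lost a functional UCP1 gene and has no classical brown fat, which is why its other uncoupling carriers, the calcium pump ATP2A2 (SERCA2) and the PPARGC1A pathway draw interest in this species. PPARGC1A is a transcriptional coactivator that works through nuclear receptors such as ESRRA and PPARA and raises TFAM, the protein that packages mitochondrial DNA and starts its transcription. DIO2 converts the prohormone T4 into active T3 inside the cell, and CIDEA is a lipid droplet protein long used as a marker of brown fat that is also abundant in the white fat of many mammals.

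In the RefSeq annotation of Sscrofa11.1, UCP2 (chr9:8358559-8364552) and UCP3 (chr9:8378023-8389452) are neighbours with 13470 bases between them. CIDEA lies at chr6:97253074-97268355, PPARGC1A at chr8:17841844-18527953, ESRRA at chr2:7803504-7812868, PPARA at chr5:3302755-3321091 and DIO2 at chr7:103096414-103110749. TFAM (chr14:92261713-92279731) and ATP2A2 (chr14:31674659-31744981) share a chromosome. The probes were not aligned to this assembly here.

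What a probe reads depends on its 60 bases, and the probes of a member were not always independent of each other. The following sequences are those of the arrays' design, and are shown because a result turns on them (CIDEA and PPARA), because they place the probe in the transcript (UCP3 and DIO2) or because they show how far probes of a gene repeat each other (UCP2 and ATP2A2). Capitals mark the start codon of a frame with no stop before the end of the UCP3 probe, the stop codon in the DIO2 probe, and the run that a pair of probes shares in UCP2 and ATP2A2.
CIDEA A_72_P078041: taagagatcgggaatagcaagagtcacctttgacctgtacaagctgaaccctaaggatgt
PPARA A_72_P441798: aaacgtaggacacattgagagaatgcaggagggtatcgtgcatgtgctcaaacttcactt
PPARA O221: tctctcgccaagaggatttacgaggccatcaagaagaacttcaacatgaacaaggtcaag
UCP3 O7852: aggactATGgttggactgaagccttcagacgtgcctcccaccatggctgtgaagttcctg
UCP3 A_72_P443167: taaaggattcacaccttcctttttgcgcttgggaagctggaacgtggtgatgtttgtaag
DIO2, both probes: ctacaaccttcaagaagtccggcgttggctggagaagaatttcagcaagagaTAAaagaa
UCP2, run shared by both probes: ATCAGCCAGGATCTCAAGTCCT
ATP2A2 A_72_P576059: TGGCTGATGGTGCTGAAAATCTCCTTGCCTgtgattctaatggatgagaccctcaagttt
ATP2A2 A_72_P624661: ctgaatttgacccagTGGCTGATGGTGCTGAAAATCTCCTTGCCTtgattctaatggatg
The DIO2 probes are identical over all 60 bases, as are the ATP2A2 probes O4122 and A_72_P505287, and these pairs are repeat readings of 1 sequence. The UCP2 probes share 22 bases, the TFAM probes A_72_P149791 and A_72_P640550 share 40, and 14 of 231 pairs of ATP2A2 probes share a run of 15 bases or more. The PPARA, PPARGC1A and UCP3 probes share no run longer than 9 bases and read separate stretches.

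In the comparison of HS with TN, corrected for breed, CIDEA, TFAM and PPARA each had a probe that fell, and no probe of the 9 genes rose. With limma and Benjamini-Hochberg adjustment over all tested probes, 4 of the 43 probes passed an adjusted p of 0.05: the CIDEA probe, 1 of 3 PPARA probes and the 2 overlapping TFAM probes. Over all 44703 tested probes 12.2% passed, so the share of these probes that passed was near the background. The median log2 difference was -0.07 over the 43 probes and 0.00 over all tested probes. At an unadjusted p under 0.05 there were 8 of the 43, beside 12032 of all 44703.

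**Figure D1:**
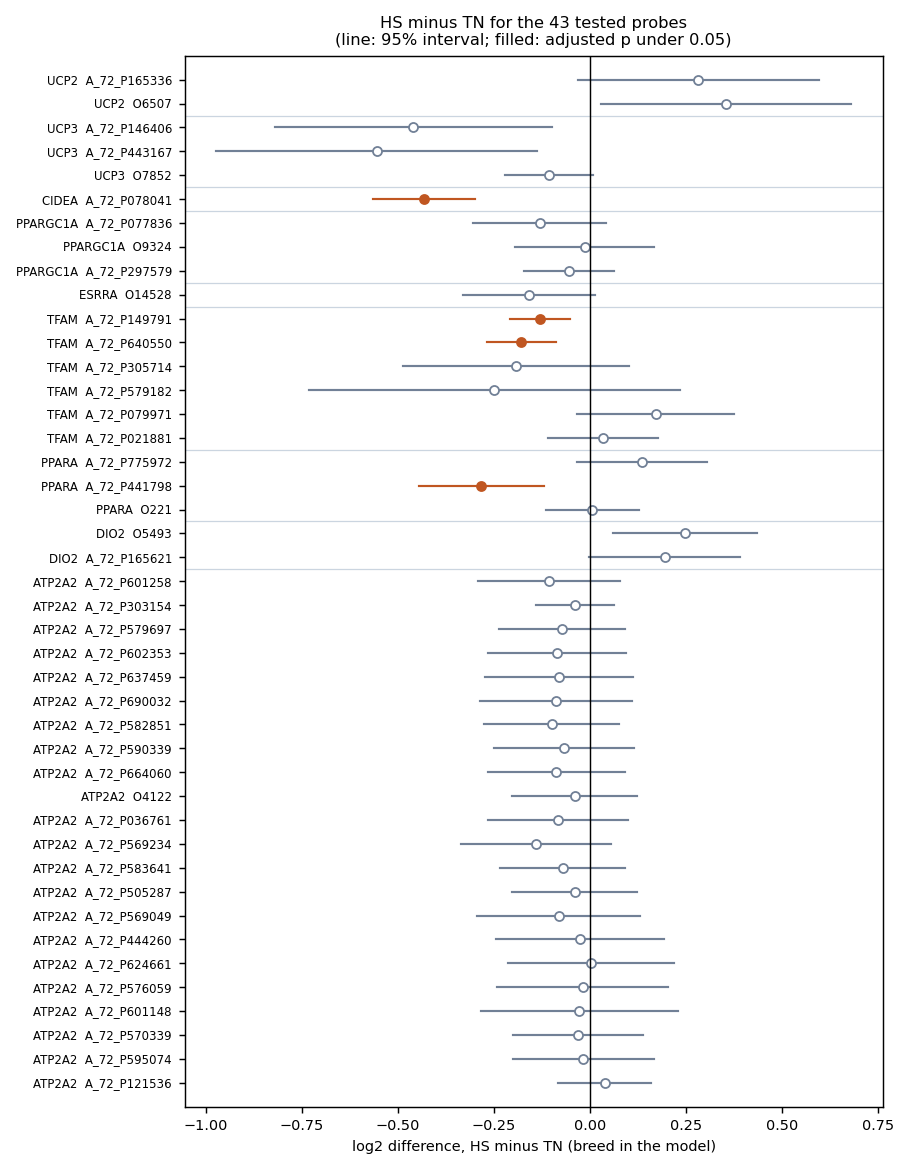
Log2 difference between HS and TN pigs (horizontal axis, breed in the model) for each of the 43 tested probes (rows, grouped by gene), with its 95% interval; filled points have an adjusted p under 0.05. The 4 filled points, of CIDEA, PPARA and TFAM, all lie below 0, and the 22 ATP2A2 probes sit between -0.14 and 0.04.

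CIDEA showed the clearest difference. In Creole pigs the TN arrays read log2 levels of 15.14, 15.23 and 15.11 and the HS arrays 14.54, 14.66, 14.94, 14.83 and 14.72. In F1 pigs the TN arrays read 15.33, 15.10, 15.24 and 15.22 and the HS arrays 14.58, 14.59, 14.85, 14.79 and 14.78. In LW pigs the TN arrays read 14.53, 14.95, 14.93 and 14.87 and the HS arrays 14.72, 14.54, 14.14, 14.20 and 14.63. The TN and HS arrays did not overlap within Creole or within F1, whereas in LW TN replicate 1 lay among the HS values. The 11 TN pigs averaged 15.06 ± 0.23 (SD) and the 15 HS pigs 14.63 ± 0.22, and the level in HS fell by 25.9% (log2 difference -0.43, SE 0.06, limma adjusted p = 0.000233). All 15 HS pigs lay below the TN mean of their own breed. The difference was negative on each of the 5 array slides, from -0.75 to -0.26 with breed taken out, and every fit without 1 array kept the call, with log2 differences of -0.47 to -0.41.

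TFAM was read by 6 probes. The levels of A_72_P640550 in Creole pigs were 10.34, 10.39 and 10.43 in TN and 10.35, 10.25, 10.17, 10.17 and 10.39 in HS. They were 10.24, 10.22, 10.29 and 10.34 in TN and 10.09, 10.14, 10.25, 10.04 and 10.23 in HS F1 pigs, and 10.29, 10.34, 10.52 and 10.35 in TN and 10.20, 10.02, 10.08, 9.96 and 10.19 in HS LW pigs. The LW groups did not overlap, the other groups did, and 14 of 15 HS pigs lay below the TN mean of their breed. This probe fell by 0.18 on the log2 scale (SE 0.04, limma adjusted p = 0.00875), and the probe that shares 40 of its bases, A_72_P149791, fell by 0.13 (SE 0.04, limma adjusted p = 0.0271). The other 4 TFAM probes had log2 differences of -0.25, -0.19, 0.03 and 0.17 with adjusted p-values of 0.281 to 0.8. The mean of all 6 probes differed by -0.09 (SE 0.04, limma adjusted p = 0.181), so the call rests on the overlapping pair.

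PPARA, the nuclear receptor that switches on fatty acid oxidation, gave different answers from its 3 probes. A_72_P441798 read a lowest, median and highest log2 level of 6.11, 6.48 and 6.59 in the 11 TN pigs and of 5.74, 6.06 and 6.59 in the 15 HS pigs. The ranges overlapped, but 9 of 15 HS pigs lay below every TN pig, and 14 of 15 below the TN mean of their breed. The level of this probe fell by 17.8% (log2 difference -0.28, SE 0.08, limma adjusted p = 0.0198). The other PPARA probes differed by 0.13 (A_72_P775972, adjusted p = 0.306) and 0.01 (O221, adjusted p = 0.961), and the mean of the 3 probes by -0.05 (SE 0.05, limma adjusted p = 0.594). A_72_P775972 is the PPARA probe with the highest mean signal, and O221 was well above background on 16 of 26 arrays. In deviations from the group means over the 26 arrays, the 3 PPARA probes correlated with each other at r = -0.13 to 0.32, which describes how little they move together.

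UCP2 and UCP3, neighbouring mitochondrial carriers of the uncoupling protein family, pointed in opposite directions without passing the test. UCP3 probe A_72_P146406 read 14.33, 15.67 and 16.08 (lowest, median and highest log2 level) in TN and 14.23, 15.11 and 15.72 in HS, and 12 of 15 HS pigs lay below the TN mean of their breed. Its log2 difference was -0.46 (SE 0.18, 95% interval -0.82 to -0.10, limma adjusted p = 0.0858). A_72_P443167 differed by -0.56 (SE 0.20, limma adjusted p = 0.0725) and O7852, at the start codon, by -0.11 (SE 0.06, limma adjusted p = 0.219). In deviations from the group means, the 3 UCP3 probes correlated at r = -0.25 to 0.92 with a median of -0.21, so they did not move as one. Where the values of all 3 UCP3 probes were averaged first, the log2 difference of -0.37 (SE 0.12) did pass, at a limma adjusted p of 0.0427. On that measure the number of members called, CIDEA and UCP3, fell from 2 to 1 in 15 of 26 fits without 1 array. The probe A_72_P146406 alone passed with the 75th percentile scaling (lowest adjusted p = 0.027), slide as a fixed block and array weights. The call also depended on single pigs, since A_72_P146406 passed without LW TN replicate 4 (log2 difference -0.58, adjusted p = 0.0156), which had the lowest TN level of 14.33, and without LW HS replicate 5 (-0.52, adjusted p = 0.0461).

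For UCP2 the probe A_72_P165336 read 9.94, 10.83 and 11.43 in TN and 9.92, 11.15 and 12.04 in HS. The groups overlapped over most of their range, although 13 of 15 HS pigs lay above the TN mean of their breed. The log2 differences of the UCP2 probes were 0.28 (SE 0.15, limma adjusted p = 0.238) and 0.35 (SE 0.16, limma adjusted p = 0.145). The upper bound of the 95% interval of A_72_P165336 was 0.59.

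The coactivator PPARGC1A and its partner ESRRA did not pass in HS against TN. The 3 tested PPARGC1A probes had log2 differences of -0.13, -0.06 and -0.01 (adjusted p = 0.328 to 0.938), and their mean one of -0.07 with a 95% interval of -0.20 to 0.06. ESRRA read 12.33, 12.40 and 12.81 in TN and 11.997, 12.25 and 12.85 in HS. Although 11 of 15 HS pigs lay below every TN pig, 2 lay above every TN pig, and the log2 difference was -0.16 (SE 0.08, limma adjusted p = 0.22).

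DIO2 read 6.86, 7.25 and 7.76 in TN and 6.84, 7.55 and 8.06 in HS at probe O5493, with 13 of 15 HS pigs above the TN mean of their breed. Its log2 difference was 0.25 (SE 0.09, limma adjusted p = 0.075), and that of the second copy of the same sequence 0.19 (SE 0.10, limma adjusted p = 0.191). The gap between these values is the spread that identical probes gave. O5493 passed with the 75th percentile scaling, array weights and the macrophage score as a covariate (lowest adjusted p = 0.0238), and without LW TN replicate 4 (0.28, adjusted p = 0.0465) or Creole HS replicate 5 (0.29, adjusted p = 0.0216).

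ATP2A2, the SERCA2 pump that returns calcium to the endoplasmic reticulum, had the most probes of the 9 genes. Its 22 probes had log2 differences of -0.14 to 0.04 between HS and TN, 20 of them negative, and adjusted p-values of 0.357 to 0.994. The probe with the highest signal, A_72_P601258, read 9.88, 10.12 and 10.38 in TN and 9.69, 9.9989 and 10.66 in HS, with a 95% interval of the log2 difference of -0.29 to 0.08. The probes moved together from pig to pig, with a median r of 0.87 over 231 pairs of probes in deviations from the group means (26 arrays, many pairs sharing bases). Not all did so, and the lowest r was -0.21, between A_72_P505287 and A_72_P121536, which is tied to ATP2A2 by its description and was well above background on 23 arrays.

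**Figure D2:**
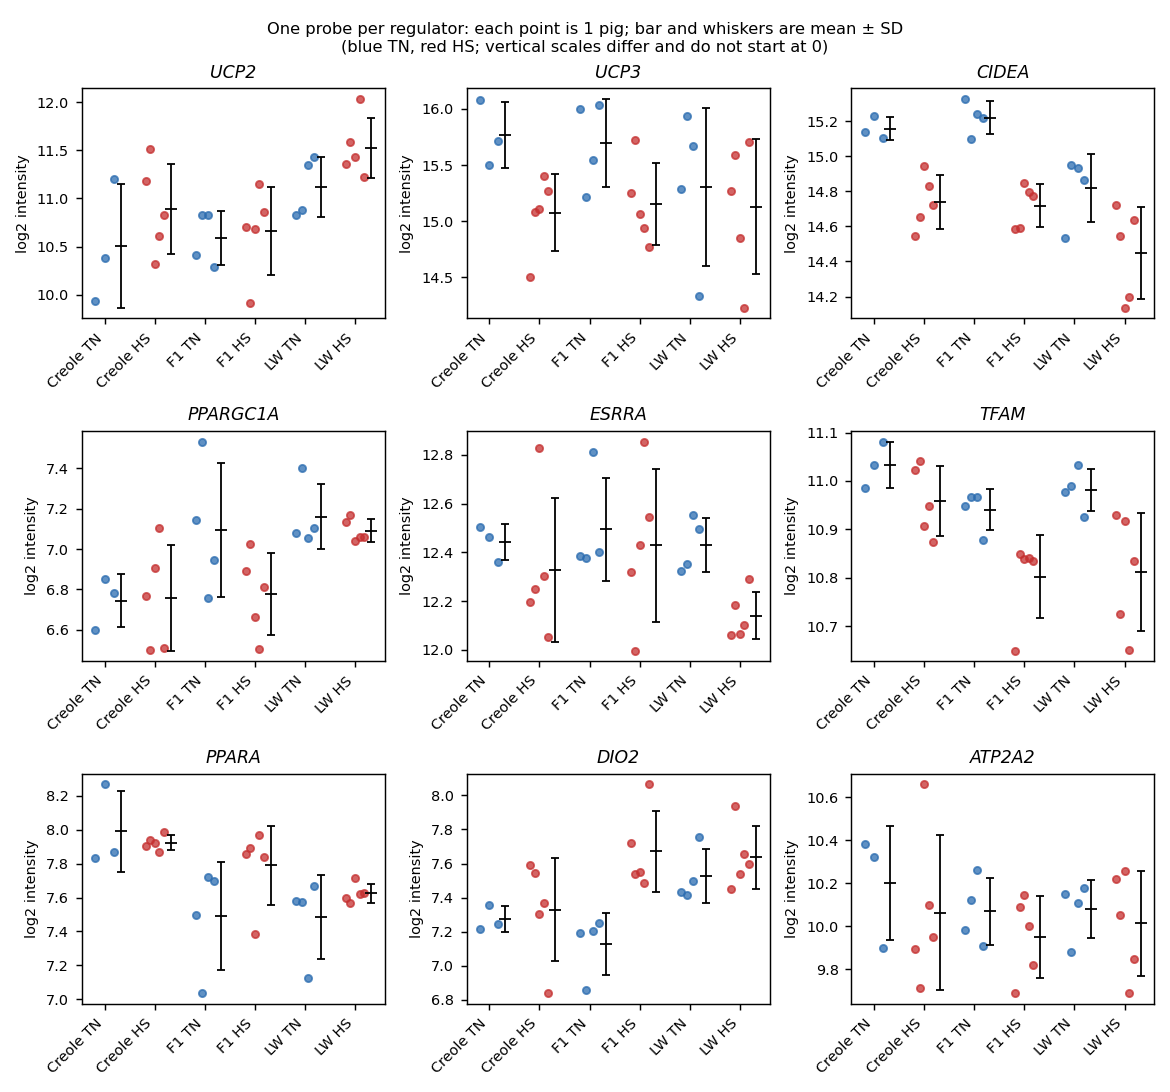
Log2 intensity (vertical axes, which differ between panels) in each of the 26 pigs by breed and temperature (horizontal axes), for the tested probe of each gene with the highest mean signal; points are pigs, bars and whiskers the mean ± SD. CIDEA lies lower in HS (red) than in TN (blue) in each breed, and UCP2 and PPARGC1A lie higher in LW than in Creole.

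Within single breeds few probes passed. Of the 43 probes, 0 passed within Creole (4 at an unadjusted p under 0.05, beside 4973 of all 44703), 1 within F1 (CIDEA, log2 difference -0.50, limma adjusted p = 0.045) and 1 within LW (TFAM A_72_P640550, -0.28, limma adjusted p = 0.046). Neither count was stable. Without 1 array the count within LW fell to 0 in 17 of 26 fits, and that within F1 moved to 0 or 2 in 15 of 26. The F1 count does not tell in how many of those fits CIDEA itself lost its call. The same tests called 0.0537% of all tested probes within Creole, 0.421% within F1 and 1.52% within LW. CIDEA differed by -0.42 within Creole and -0.37 within LW (adjusted p = 0.2 and 0.087). In the test of the interaction of breed and temperature with limma, 0 of 43 probes passed, against 0.00224% of all tested probes. An unadjusted p under 0.05 was reached by 2 of the 43 and by 2337 of all 44703. Those 2 were A_72_P121536 of ATP2A2 (unadjusted p = 0.00816) and O5493 of DIO2 (unadjusted p = 0.0469), which had log2 differences of 0.55 within F1, 0.06 within Creole and 0.11 within LW. No difference between breeds in the response of these genes was detectable with 3 to 5 pigs per group.

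Between LW and Creole, corrected for temperature, more of the probes passed. UCP2 and PPARGC1A were higher in LW, and CIDEA and PPARA were lower. With limma 9 of the 43 probes passed, 6 of them higher in LW, whereas 14.3% of all tested probes passed. The 6 include the PPARGC1A probe A_72_P297579, which was near background in Creole and is described with its gene. In the F test of any difference between breeds 7 of 43 passed, against 11.3% of all tested probes.

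PPARGC1A was higher in LW on the 2 probes that were well above background on all arrays, which share no run above 9 bases. At O9324 the Creole pigs read 6.18, 6.20 and 6.4995 in TN and 6.18, 6.09, 6.42, 6.65 and 6.10 in HS. The LW pigs read 6.60, 6.99, 6.996 and 6.82 in TN and 6.81, 6.87, 7.32, 6.70 and 6.70 in HS, so that 8 of 9 LW pigs lay above every Creole pig. The F1 pigs lay between 6.13 and 6.87, overlapping with both. The 9 LW pigs averaged 6.87 ± 0.22 (SD) and the 8 Creole pigs 6.29 ± 0.21, a 1.49-fold difference (log2 difference 0.58, SE 0.11, limma adjusted p = 0.00136). A_72_P077836 differed by 0.36 (adjusted p = 0.0201). The third probe, A_72_P297579, was well above background on 8 of 9 LW arrays and 1 of 8 Creole arrays, so it was tested only because of the breeds in which it is higher. Its measured difference of 0.25 (adjusted p = 0.0162) is one against Creole levels near background.

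UCP2 was higher in LW on both probes, by 0.62 (SE 0.19, limma adjusted p = 0.0263) and 0.63 (SE 0.19, limma adjusted p = 0.029). At A_72_P165336 the lowest, median and highest log2 levels were 10.82, 11.35 and 12.04 in the 9 LW pigs, 9.94, 10.72 and 11.51 in the 8 Creole pigs and 9.92, 10.70 and 11.15 in the 9 F1 pigs. The LW median was the highest, while Creole and F1 had nearly the same median. LW and Creole overlapped, with 2 of 9 LW pigs above every Creole pig, and without any one of Creole TN replicate 1, Creole TN replicate 2, Creole HS replicate 3 or LW HS replicate 4 the adjusted p rose to between 0.0517 and 0.0651.

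CIDEA differed by -0.31 on the log2 scale between LW and Creole (SE 0.08, limma adjusted p = 0.0102), a change of -19.5% in level. The medians were 14.63 in LW, 14.89 in Creole and 14.85 in F1, and the ranges of LW (14.14 to 14.95) and Creole (14.54 to 15.23) overlapped, with 3 of 9 LW pigs below every Creole pig. PPARA was lower in LW on 2 of 3 probes, by 0.38 at A_72_P775972 (SE 0.10, limma adjusted p = 0.0141) and by 0.34 at A_72_P441798 (SE 0.10, limma adjusted p = 0.0215). At A_72_P775972 all 9 LW pigs lay below every Creole pig, with highest and lowest levels of 7.71 in LW and 7.84 in Creole. The third PPARA probe, O221, differed by -0.04 (adjusted p = 0.782).

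TFAM had 1 probe that was higher in LW, A_72_P079971, by 0.49 (SE 0.12, limma adjusted p = 0.00966). This probe is tied to TFAM only by the description of its target, and the pair of TFAM probes that fell in HS differed by -0.11 and -0.11 between LW and Creole (adjusted p = 0.121 and 0.178). The 6 TFAM probes correlated at r = -0.67 to 0.61 in deviations from the group means, so they did not move as one. UCP3 (log2 differences of -0.40 to -0.08, adjusted p = 0.302 to 0.671), ESRRA (-0.11, adjusted p = 0.505) and ATP2A2 (-0.32 to 0.17, adjusted p = 0.0654 to 0.879) did not pass, and DIO2 had differences of 0.30 and 0.33 (adjusted p = 0.0753 and 0.0562).

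**Figure D3:**
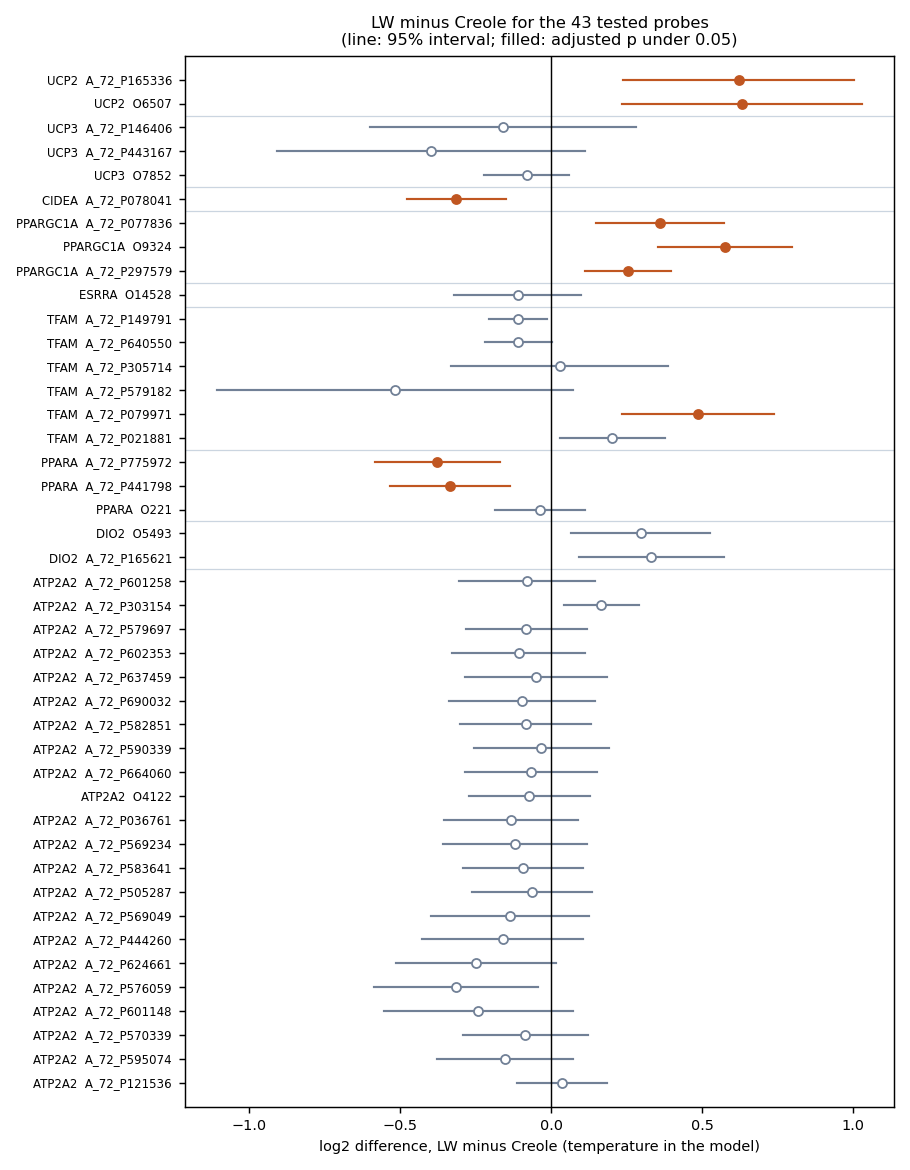
Log2 difference between LW and Creole pigs (horizontal axis, temperature in the model) for each of the 43 tested probes (rows, grouped by gene), with its 95% interval; filled points have an adjusted p under 0.05. All 3 PPARGC1A probes (A_72_P297579 being near background in Creole) and both UCP2 probes are filled and above 0, and the CIDEA probe and 2 PPARA probes are filled and below 0.

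The F1 pigs were compared with the mean of LW and Creole. With limma 0 of 43 probes passed (3 at an unadjusted p under 0.05, beside 3885 of all 44703), and 0.00671% of all tested probes did. The log2 differences were -0.41 for UCP2 A_72_P165336 (adjusted p = 0.456), 0.17 for CIDEA (adjusted p = 0.458) and -0.10 for PPARGC1A O9324 (adjusted p = 0.777). F1 and mid-parent levels could not be separated at this number of pigs.

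Taking 1 probe for each gene, 2 of 9 genes (CIDEA and TFAM) passed in HS against TN, beside 12.6% of 10125 named genes, and 4 of 9 (CIDEA, PPARA, PPARGC1A and UCP2) in LW against Creole, beside 15.3%. On the mean of all probes of a gene, 2 of 9 passed in HS against TN (CIDEA and UCP3), beside 13.4% of named genes. In LW against Creole 4 of 9 passed, beside 16.2%, but the PPARGC1A mean includes A_72_P297579, which was near background in Creole. CIDEA was thus called in both comparisons on both measures, but it has a single probe.

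The tissue was checked against its markers. Of 9 tested adipocyte markers, 8 were well above background on all 26 arrays, among them ADIPOQ, PLIN1 and FABP4. The arrays had 68.5% to 76.6% of their probes well above background, and no spot was saturated. Pairs of arrays of 1 group correlated at 0.974 to 0.993, and pairs of different groups at 0.972 to 0.992. Some marker scores of other cell types, each the mean deviation of its markers from their means over the arrays, moved with temperature, and in bulk tissue fewer cells of a type and less RNA per cell cannot be told apart. The red blood cell score (6 of 10 markers tested) ranged from 0.03 to 0.47 in TN and from -0.49 to 0.28 in HS, a difference of -0.28 (permutation test, adjusted p = 0.00405), and 2 of its 6 markers passed in limma, HBB (-0.85) among them, while 4 of 6 were lower in HS. The fibroblast and matrix score (13 of 13 markers) ranged from -0.71 to 0.25 in TN and from -0.22 to 0.49 in HS, a difference of 0.24 (permutation test, adjusted p = 0.0153). The nerve and Schwann cell score (9 of 10 markers) ranged from -0.63 to 0.11 in TN and from -0.24 to 0.60 in HS, a difference of 0.40 (permutation test, adjusted p = 0.0025).

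With each score as a covariate, the CIDEA log2 difference between HS and TN was -0.41 (red blood cell), -0.32 (fibroblast and matrix) and -0.42 (nerve and Schwann cell), with limma adjusted p-values of 0.0358, 0.0105 and 0.0315. The call was thus kept with each score, at a smaller size with the fibroblast and matrix score. The number of the 43 probes called was 1, 2 and 1, and the number over all tested probes fell to 215, 1400 and 421. PPARA A_72_P441798 differed by -0.16 with the red blood cell score (limma adjusted p = 0.4932), and TFAM A_72_P149791 by -0.14, -0.13 and -0.11 with the red blood cell, fibroblast and nerve scores (limma adjusted p = 0.22, 0.11 and 0.305). Skeletal muscle, which also expresses UCP3, PPARGC1A and ATP2A2, had a score (19 of 20 markers tested) that ranged from -1.95 to 2.58 and differed by 0.43 between HS and TN (permutation test, adjusted p = 0.414). With it as a covariate UCP3 A_72_P146406 passed, at a log2 difference of -0.53 (limma adjusted p = 0.0387).

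The adipocyte score moved with breed, mainly through LEP. It ranged from -0.24 to 0.03 in LW and from 0.03 to 0.36 in Creole, a difference of -0.21 (permutation test within temperatures, adjusted p = 0.0042). Of its 9 tested markers 7 were lower in LW and 2 passed in limma, LEP (-1.23) and GPD1 (-0.27). The others were CIDEC (-0.16), PLIN1 (-0.14), PNPLA2 (-0.11), LIPE (-0.07), FABP4 (-0.014), ADIPOQ (0.0022) and RETN (0.10). Without LEP the score differed by -0.08 (permutation p = 0.103). With the score of all 9 markers as a covariate 0 of 43 probes passed in LW against Creole (7 at an unadjusted p under 0.05, limma), 373 probes passed over the whole array, and the log2 difference was 0.33 for PPARGC1A A_72_P077836, 0.43 for UCP2 A_72_P165336 and -0.18 for CIDEA (limma adjusted p = 0.269, 0.444 and 0.415). With the fibroblast and matrix score, which differed by 0.28 between LW and Creole (permutation test, adjusted p = 0.0774), 1 of 43 passed, with log2 differences of 0.41 for PPARGC1A, 0.45 for UCP2, -0.24 for PPARA A_72_P775972 and -0.19 for CIDEA (limma adjusted p = 0.0625, 0.263, 0.234 and 0.209). With the adipocyte score without LEP 4 of 43 passed, PPARGC1A (0.39, adjusted p = 0.0352) and PPARA (-0.44, adjusted p = 0.015) among them, and UCP2 (0.58, adjusted p = 0.0808) and CIDEA (-0.22, adjusted p = 0.0691) did not. The endothelial cell score differed by 0.17 between LW and Creole (permutation test, adjusted p = 0.0772), where KDR (0.87) was the 1 marker of 8 that passed in limma and 2 of 8 were lower in LW, and with the score as a covariate 4 of 43 passed. UCP2 was then at 0.85 (adjusted p = 0.0153) and CIDEA at -0.34 (adjusted p = 0.034), while PPARGC1A (0.34, adjusted p = 0.0895) and PPARA (-0.38, adjusted p = 0.0578) did not pass. The part of these cell types in the members' differences was not tested beyond these fits.

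Over the 26 pigs, with the group means taken out, UCP2 and UCP3 were inversely related at 1 probe each (A_72_P165336 and A_72_P146406). Pearson's r was -0.59 (permutation p = 0.00118, adjusted p = 0.0425 over 36 pairs of the 9 genes) and Spearman's rho -0.62 (permutation p = 0.00161, adjusted p = 0.058). Without the 2 pigs farthest from the median of UCP2, r was -0.59. In the other 35 pairs r was between -0.51 (ATP2A2 with UCP2) and 0.46 (CIDEA with ESRRA, permutation p = 0.00871, adjusted p = 0.157). These levels share the array, its normalization and its mixture of cells. The 3 UCP3 probes correlated with each other at r = -0.25 to 0.92, and the relation of the other UCP3 probes with UCP2 was not tested. In deviations from the group means the endothelial cell score had an r of -0.56 with UCP2 and 0.41 with UCP3, the skeletal muscle score -0.40 and 0.26, and the smooth muscle and pericyte score 0.12 and -0.49. The part of these cell types in the relation was not tested.

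**Figure D4:**
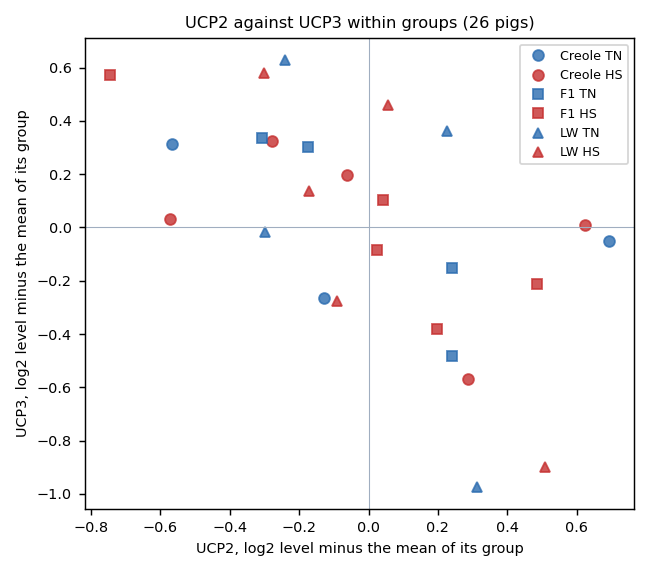
Log2 level minus the mean of its group for UCP2 (horizontal axis) and UCP3 (vertical axis) in the 26 pigs, with 1 probe per gene. Colours give the temperature (blue TN, red HS) and shapes the breed. Pigs above their group's mean in UCP2 tended to lie below it in UCP3 (r = -0.59).

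The 3 named genes whose deviations followed each member most closely were listed over 26 arrays and 1 probe per gene, as a description. CIDEA was followed by LRCH4 (r = 0.76), LOC100520032 (0.74) and PINK1 (0.74), the kinase that marks damaged mitochondria. ESRRA was followed by MRPL35 (r = 0.87) and MRPL16 (0.86), proteins of the mitochondrial ribosome, and by HBZ (0.85), a globin. PPARA was followed by MRPL41 (r = 0.80), LOC100514530 (0.78) and CEBPA (0.77), a transcription factor of fat cell differentiation. The values of these nearest genes were of like size for all 9 members, between 0.67 and 0.87. UCP3 was followed by USP33 (r = 0.80), CEBPB (0.77) and FLRT2 (0.74), and UCP2 by ACOT8 (0.76), ITPA (0.74) and WFDC3 (0.74). DIO2 was followed by OXR1 (r = 0.76), NDUFA2 (0.75) and DTX1 (0.74), of which NDUFA2 is a subunit of respiratory complex I. TFAM was followed by TAF11 (r = 0.76), RNMT (0.76) and LOC100522904 (0.74). The other lists were MANEAL (0.83), HSPB7 (0.81) and CCNYL1 (0.78) for ATP2A2 and UPF2 (0.74), SLA-6 (0.71) and DRG1 (0.67) for PPARGC1A.

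Around these 9 regulators, 178 other genes of the pathway were listed in 8 groups. The lists were written with earlier results of these data known, so their counts are a description and not a test. Of the 178 genes, 131 were tested with 1 probe each. In HS against TN 26 of them passed, 5 higher and 21 lower, with a median log2 difference of -0.04. Over all 10125 named genes 498 were higher and 777 lower, with a median of -0.005. With the red blood cell, nerve and Schwann cell or fibroblast and matrix score as a covariate 0, 2 and 11 of the 131 passed. The lower genes lay mainly among the targets of PPARA and the mitochondrial proteins, and the higher ones among the genes of hormone input and of calcium cycling. The values below are limma log2 differences with their adjusted p.

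Among PPARA targets of fatty acid oxidation, 8 of 24 tested genes fell and 0 rose, and the median was -0.24. CPT2, the carnitine transferase of the inner mitochondrial membrane, fell by 0.40 (adjusted p = 0.000956), and ACAA2, the last enzyme of the mitochondrial spiral, by 0.37 (adjusted p = 0.00128). PLIN2, a lipid droplet coat protein, fell by 0.85 (adjusted p = 0.00224). With the red blood cell score as a covariate none of the targets passed with limma. The other 16 targets did not pass in the main comparison, and the PPARA probes themselves disagreed.

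Of 17 tested markers of mitochondrial content, 7 fell and 0 rose. They included citrate synthase CS (-0.33, adjusted p = 0.000458), UQCRC1 of complex III (-0.37, adjusted p = 0.00125), SDHB of complex II (-0.23, adjusted p = 0.00211) and the outer membrane channel VDAC1 (-0.34, adjusted p = 0.00423). Among 11 tested genes of mitochondrial DNA transcription and replication, only SLIRP, an RNA-binding protein, passed (-0.21, adjusted p = 0.04). TFB1M, an rRNA methylase related to the mitochondrial transcription factors, differed by 0.03 (adjusted p = 0.774).

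Among the partners of PGC-1 and ERR and the energy sensors 2 of 22 fell. These were GABPA (-0.20, adjusted p = 0.0241), a factor that drives nuclear genes for mitochondria, and ESRRG (-0.47, adjusted p = 0.0476), a relative of ESRRA. Of 11 tested regulators and markers of brown and beige adipocytes 0 passed, and NRIP1, a corepressor, differed by 0.10 (adjusted p = 0.489).

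For thyroid hormone and adrenergic input 2 of 22 rose and 1 fell. The thyroid hormone receptor THRA rose by 0.24 (adjusted p = 0.00569), while SLC16A10, a transporter of aromatic amino acids and thyroid hormones, fell by 0.61 (adjusted p = 0.0481). Several deiodinases and receptors did not pass: DIO1 (-0.37, adjusted p = 0.0716, well above background on 8 arrays), DIO3 (0.02, adjusted p = 0.852), THRB (0.08, adjusted p = 0.536), ADRB1 (0.28, adjusted p = 0.0983) and ADRB3 (0.06, adjusted p = 0.628).

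Of 14 tested calcium cycling genes 2 rose, the reticulum chaperone CALR (0.17, adjusted p = 0.0224) and the plasma membrane channel ORAI1 (0.29, adjusted p = 0.0286). The SERCA inhibitors SLN (0.64, SE 0.47, adjusted p = 0.407) and PLN (0.18, SE 0.10, adjusted p = 0.285) and the muscle pump ATP2A1 (0.07, adjusted p = 0.326) did not pass. Of 12 tested genes of other uncoupling and futile cycles, CKB, the creatine kinase of the creatine cycle, fell by 0.60 (adjusted p = 0.00919), the ADP/ATP carrier SLC25A6 fell by 0.22 (adjusted p = 0.00595) and SLC25A27 (UCP4) rose by 0.46 (adjusted p = 0.0387).

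**Figure D5:**
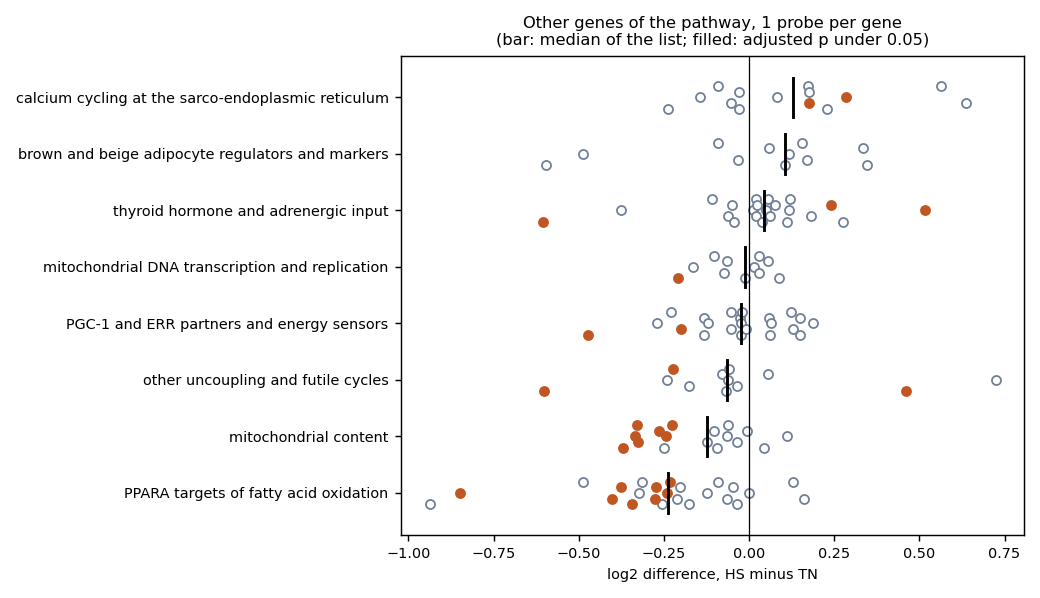
Log2 difference between HS and TN (horizontal axis) of each tested pathway gene other than the 9 members and the cell type markers, 1 probe per gene, by list (rows); bars mark the median of a list and filled points an adjusted p under 0.05. The lists of PPARA targets (median -0.24) and mitochondrial content (median -0.12) lie to the left of 0, with 8 and 7 genes filled. The lists were written with earlier results of these data known.

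In LW against Creole 25 of the 131 genes passed, 6 higher and 19 lower in LW, with a median log2 difference of -0.01, and 0 passed with the adipocyte score as a covariate. Over all 10125 named genes 673 were higher and 874 lower. Mitochondrial content held the most, with 9 of 17 lower, among them CS (-0.33, adjusted p = 0.00204), VDAC1 (-0.43, adjusted p = 0.00326), HSPD1 (-0.34, adjusted p = 0.00418) and MFN2 (-0.28, adjusted p = 0.00716). The DNA polymerase POLG (-0.37, adjusted p = 0.000738) and the protease LONP1 (-0.23, adjusted p = 0.0255) of mitochondria were lower in LW and the kinase NME4 (0.32, adjusted p = 0.0131) higher. PPARGC1A was higher in the breed in which these mitochondrial genes were lower. ESRRG was lower in LW (-0.66, adjusted p = 0.0224), and CAMKK2 (0.65, adjusted p = 0.00524), a kinase that activates AMPK, and MEF2A (0.19, adjusted p = 0.0332) were higher.

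Among PPARA targets ACADM (-0.33, adjusted p = 0.00766), ACADL (-0.29, adjusted p = 0.0138) and CD36 (-0.23, adjusted p = 0.0336) were lower in LW and HADHA (0.40, adjusted p = 0.00918) higher. Single genes passed in 3 further lists: PPARD (-1.01, adjusted p = 0.0247), the calcium-linked gene TMTC1 (-0.51, adjusted p = 0.0112) and the kinase subunit PRKACB (0.51, adjusted p = 0.00459). SLC25A27 was higher in LW (0.69, adjusted p = 0.0115), and the creatine transporter SLC6A8 (-0.94, adjusted p = 0.0153) and the ADP/ATP carrier SLC25A4 (-0.33, adjusted p = 0.0252) were lower.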

How the data were processed

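SCAT RNA of 26 pigs was hybridised to single-colour Agilent arrays on 5 slides, 1 pig per array. The authors deposited the scanner output, which holds spot intensity values from Agilent Feature Extraction 10.10.1.1 per the submitters' processing notes, and a table of log2 values. Per the methods of the study, limma read the intensities and preprocessCore quantile normalized them. Here the median pixel intensity of each spot was quantile normalized between arrays without background correction and taken to log2, as the methods of the study describe, and the spots that repeat a probe were averaged. A probe was tested if 8 or more arrays had it well above background. The number of arrays, not a read depth, limits the precision.

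Of 60306 spots that are not controls, 9565 were named through the accession of their target, 14590 by symbol and 198 by a synonym of RefSeq's pig annotation, and 35953 were left without a name. Groups were taken from the sample labels. Differences were fitted with limma 3.58.1 in R 4.3.3 with breed and temperature in the model (for within-breed values and the interaction, the 6 groups), and p-values were adjusted by Benjamini-Hochberg over the whole tested array, and 0.05 was the threshold. Intervals are at 95%. For a gene with several probes that of the highest mean level stood for it. Every probe of the 9 genes was reported, and in each pathway list up to 4 genes with the smallest adjusted p in each comparison, besides a few genes named whatever their result. Some genes that this rule names are not reported here. Marker scores and correlations were tested with 100000 permutations within breeds, temperatures or groups. The members and lists were chosen with earlier results of these data known. The scripts were tested on simulated data.

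Alternatives were no breed term, the processed signal scaled to the 75th percentile, normexp correction with an offset of 50, the normalized table (44104 probes), other filters, slide as a block, array weights, no variance trend, marker scores as covariates, the mean of all probes of a gene and leaving out each array. Scores of fibroblasts, adipocytes (with and without LEP), nerve, macrophages and endothelium were chosen after seeing the data.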

Additional observations from a re-analysis of the deposited data

Results flagged for a closer look

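Of 45 combinations of gene and group with 4 or 5 pigs, 6 held a pig far from the others of its group, where chance gives about 1 in 20. DIO2 in F1 TN replicate 2 was at 6.86 on the log2 scale, with a group median of 7.20. ESRRA in F1 TN replicate 3 was at 12.81 (median 12.39), and PPARGC1A in LW TN replicate 2 at 7.40 (median 7.09). PPARA (A_72_P775972) was low in F1 HS replicate 3 at 7.39 (median 7.86) and in LW TN replicate 3 at 7.12 (median 7.58). TFAM in F1 HS replicate 1 was at 10.65 (median 10.84). No pig stood apart in more than 1 of these genes.

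For PPARA A_72_P775972 every Creole HS pig lay below the mean of Creole TN and every LW HS pig above the mean of LW TN. The Creole side of this rests on TN replicate 2 at 8.27, since the other Creole TN pigs were at 7.84 and 7.87 and the HS pigs between 7.87 and 7.99. The LW side rests on TN replicate 3 at 7.12, since the other LW TN pigs were at 7.58, 7.58 and 7.67 and the HS pigs between 7.57 and 7.71. The test of the interaction with limma did not pass (adjusted p = 0.897).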

How the results depend on the processing

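CIDEA kept its lower level in HS and its call in all 18 alternatives (log2 difference -0.55 to -0.32) and without each array. The mean of probes, 1 of the 18, cannot change the log2 difference of CIDEA, which has a single probe. The number of member probes called in HS against TN was 2 without the breed term, 7 with the 75th percentile scaling and 7 with array weights, and 1, 2 and 1 with the red blood cell, fibroblast and nerve scores. In LW against Creole it was 1 with the fibroblast, 0 with the adipocyte, 4 with the endothelial score and 4 with the adipocyte score without LEP, and for any breed difference 0, 0 and 4 with the first 3. Within F1 it was 0 with no filter, slide as a fixed block, no trend or the red blood cell, fibroblast, nerve or macrophage score or the adipocyte score without LEP. Within LW it was 2 with the 75th percentile scaling, and 0 with no filter, slide as a fixed or random block, or the red blood cell, fibroblast, nerve, endothelial or adipocyte score, the last with or without LEP. Members called on the mean of probes in HS against TN numbered 1 with normexp and with the red blood cell, fibroblast, nerve and adipocyte scores (with or without LEP). Other pathway genes called in HS against TN were 0, 11 and 2 with the red blood cell, fibroblast and nerve scores, and in LW against Creole 2, 0 and 7 with the fibroblast, adipocyte and endothelial scores. PPARA turned to -0.048 in HS on the mean of probes and -0.043 with the nerve score; ATP2A2 and ESRRA turned to 0.10 and 0.12 in LW with the adipocyte score, and UCP3 to 0.036 without LEP in it. UCP2 lost its LW call with slide as a fixed block (0.57, adjusted p = 0.0683) and the muscle score (0.53, adjusted p = 0.0795). In HS against TN, DIO2 gained a call in 3 of 18 alternatives (75th percentile scaling, array weights, macrophage score) and UCP3 in 5 (the first 2 of these, slide as a fixed block, the muscle score and the mean of probes), while TFAM lost it in 5 (mean of probes, the red blood cell, fibroblast and nerve scores, and the adipocyte score without LEP). In LW against Creole, CIDEA, PPARA, PPARGC1A and UCP2 lost their calls with the fibroblast and adipocyte scores (PPARGC1A at 0.41 with the former), PPARGC1A and PPARA with the endothelial score and CIDEA and UCP2 with the adipocyte score without LEP, and TFAM gained one with the 75th percentile scaling. The cause was not tested. Member probes called without 1 array were 4 to 7 in HS against TN (7 without LW TN replicate 4), 7 to 11 in LW against Creole, 4 to 9 for any breed difference (4 without LW HS replicate 2), 0 to 0 for F1 against the parents, within Creole and for the interaction, 0 to 2 within F1 and 0 to 1 within LW. Other pathway genes were 18 to 30 and 20 to 36, and members on the mean of probes 1 to 2. ATP2A2 ranged from -0.13 to 0.0037 between LW and Creole, turning without Creole HS replicate 3. No paired analysis was possible, because TN and HS pigs were different animals and the labels do not give the litter.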
